A study of Mus musculus with 4 samples.

Results

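Pancreatic islets of wild type mice were compared between 6 months and 1 month of age by droplet single-cell RNA sequencing, in 7 cell classes. A cell barcode was a beta cell when Ins1 and Ins2 together gave at least 20% of its unique molecular identifiers (UMIs), an alpha cell when Gcg gave at least 10%, a delta cell when Sst gave at least 5% and a gamma cell when Ppy gave at least 5%. Endothelial, mesenchymal and macrophage barcodes carried at least 4 markers of their class. The 7 classes held 10604 of the 12369 barcodes kept from the 2 wild type libraries, and 21806 of 25220 in the whole series of 4 libraries.

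Both wild type groups were female mice on a C57b6/J background, of genotype WT CCR2-DTR-/-, which lack the diphtheria toxin receptor transgene. They nevertheless received the toxin as newborns, 4 times on alternate days from the second day after birth, together with littermates of genotype CCR2-DTR+/-, which carry the receptor under control of Ccr2. The other pair of libraries, at 1 and 6 months, came from such CCR2-DTR+/- females and is called the CCR2-DTR pair here. All groups were weaned to ordinary chow. Each library was made from hand-picked islets pooled from 2 to 3 females, so that each age of each genotype was 1 library and no animal could be told from another. Age, the animals pooled and the library preparation therefore cannot be told apart, and no test over replicates was possible. The labels do not say on which day each library was prepared.

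An islet is a small endocrine organ within the exocrine pancreas. Beta cells release insulin, alpha cells glucagon, delta cells somatostatin and gamma cells pancreatic polypeptide, and all 4 lie on a dense net of fenestrated capillaries lined by pericytes and patrolled by macrophages. In mice, endocrine cells divide in the first weeks of life and then largely stop, and beta cells acquire their full response to glucose around weaning. The comparison asked which later differences between juvenile and adult islets were shared by every class and which belonged to a single class.

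The 1-month library held 10433 barcodes and 121292320 UMIs, and the 6-month library 5089 barcodes and 60315217 UMIs. They shared 17 barcode sequences, within the 6 to 34 seen between the libraries of the series. After filtering, the classes held 3706 and 867 beta cells at 1 and 6 months, 2436 and 730 alpha cells, 540 and 314 delta cells, 396 and 224 gamma cells, 599 and 301 endothelial cells, 230 and 53 mesenchymal cells, and 123 and 85 macrophages. Median UMIs per cell were 1.538 to 2.412 times higher at 6 months in every class. Digestive enzyme RNA of the exocrine pancreas was found in 15.3% of beta cells at 1 month and 54.56% at 6 months. Of the barcodes kept, 8030 of 8736 at 1 month and 2574 of 3633 at 6 months fell in the 7 classes. Barcodes that met no class rule at all numbered 886 at 6 months, 24.39% of those kept, against 222 (2.541%) at 1 month. At 6 months, 435 barcodes lay just below the beta threshold, at 15 to 20% insulin UMIs, and 141 just above it, at 20 to 25%; at 1 month these were 49 and 58. The share of beta cells was 0.5625 times that at 1 month (95% interval 0.5219 to 0.6059), but this ratio moves with that threshold and is 0.8202 when every hormone threshold is multiplied by 0.75.

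Each class showed its own markers. A level of 50 CPM (counts scaled to a class total of 1000000) was reached in both libraries by 10 of 10 markers in beta cells, 9 of 10 in alpha cells, 5 of 10 in delta cells, 5 of 8 in gamma cells, 11 of 12 in endothelial and mesenchymal cells and 12 of 12 in macrophages. RNA of beta cells was present outside them as well. The summed level of the 10 beta markers was 27350 and 41200 CPM at 1 and 6 months in endothelial cells, 34400 and 51000 CPM in mesenchymal cells, and 24030 and 37550 CPM in macrophages.

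Counts were summed within a class and library and expressed as CPM of that class. The ratio of 6 months to 1 month is given as log2, centred on the median gene of the class. The median gene itself moved by between -0.12 in macrophages and 0.06 in beta cells. A gene is called higher or lower at 6 months when its centred ratio passed 1.5-fold and its exact 95% interval excluded no difference. It had to reach 50 CPM in 1 of the libraries and 10 UMIs over both. The intervals reflect counting error alone; animals and preparations vary beyond it. All classes come from the same 2 libraries, so that a difference shared by the classes is not repeated evidence.

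Of 6349 genes past the floor in at least 1 class, 1231 were called in some class. Most were called in a single class (1061 genes), 128 in 2 classes, 25 in 3 and 17 in 4 or more. Of the 1061 genes, 413 passed the floor in that class alone and could not be called in another. Opposite directions in different classes were found for 28 genes. Apoe, which carries lipids, was called higher in macrophages and lower in mesenchymal cells. Nupr1, a stress-induced nuclear protein, was called higher in beta cells and lower in mesenchymal cells. Pyy, which encodes peptide YY, was called higher in alpha cells and lower in endothelial cells and macrophages. Pyy is a hormone gene of endocrine cells. The part of RNA from those cells in its endothelial and macrophage values was not tested.

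Of 1234 genes past the floor in all 7 classes, 3 (0.243%) were called higher in all 7 and 0 (0.0%) lower in all 7. Lars2 and Gm42418 were among the 3 and are described here. Lars2, the mitochondrial leucyl-tRNA synthetase (GRCm38 chr9:123366927-123462666, plus strand), was at 28.87 CPM at 1 month and 74.76 CPM at 6 months in beta cells, 30.03 and 84.13 CPM in alpha cells, 43.87 and 129.1 CPM in delta cells, and 35.81 and 88.91 CPM in gamma cells. It was at 77.26 and 158.4 CPM in endothelial cells, 41.77 and 106.7 CPM in mesenchymal cells, and 26.1 and 118.7 CPM in macrophages, and every class was higher at 6 months. Its centred log2 ranged from 1.06 in endothelial cells to 2.3 in macrophages, and from 0.46 to 0.90 in the CCR2-DTR pair. Gm42418 is annotated as a long non-coding RNA at chr17:39846958-39848788 on the plus strand. Which transcripts gave the reads counted for Gm42418 and Lars2 was not tested. AY036118, on the minus strand at chr17:39847113-39848035, lies wholly inside it, so that reads of this stretch may be split between them. Gm42418 was at 5334 and 9083 CPM in beta cells, 6890 and 10580 CPM in alpha cells, 8108 and 15120 CPM in delta cells, and 6847 and 10800 CPM in gamma cells. It was at 12320 and 21160 CPM in endothelial cells, 8888 and 18130 CPM in mesenchymal cells, and 6453 and 13620 CPM in macrophages, with a centred log2 of 0.71 to 1.2 over the classes. AY036118 gave 0.54 to 1.08 and was called in 6 of 7 classes. Gm47283, another predicted gene, gave 0.56 to 1.16 and was also called in 6. All of these were also above the median gene in each class of the CCR2-DTR pair, by 0.35 to 0.67 for Gm42418 and 0.16 to 0.66 for AY036118.

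**Figure D1:**
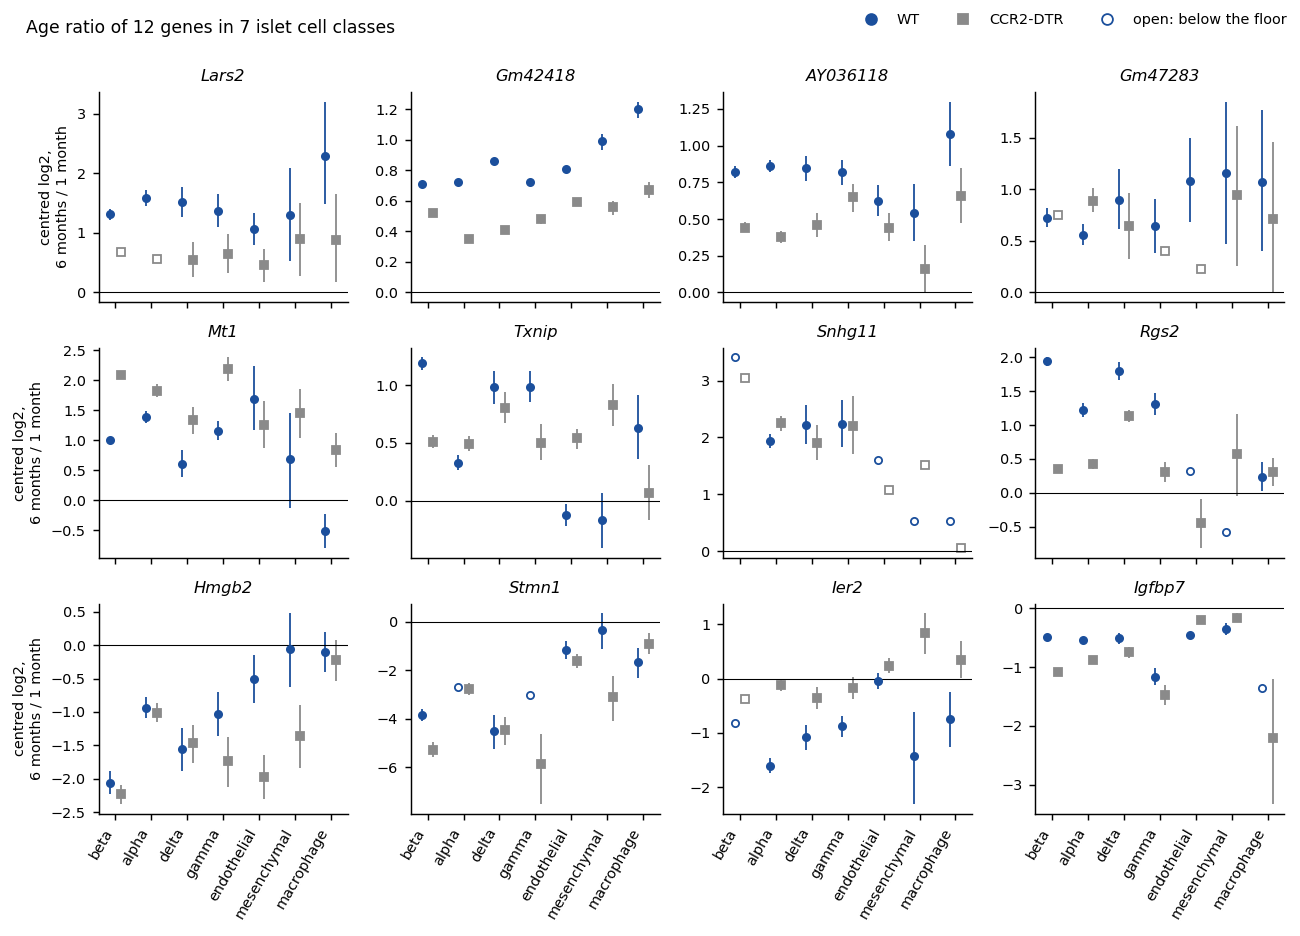
Centred log2 ratio of 6 months to 1 month for 12 genes (panels) in each of 7 cell classes (horizontal axis), with exact 95% counting intervals. Circles are WT and squares the CCR2-DTR pair; open marks lie below the floor. Lars2 and Gm42418 are above 0 in all 7 classes, whereas Rgs2 is above 0 and Hmgb2 below 0 in the 4 endocrine classes.

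Among 1645 genes past the floor in the 4 endocrine classes, 7 (0.426%) were called higher in all 4 and 1 (0.0608%) lower. The higher ones included Rgs2 and Mt1 besides Lars2, Gm42418 and AY036118, and the lower one was Hmgb2. Rgs2 limits signalling through G protein-coupled receptors. It was at 51.02 and 203.2 CPM in beta cells, 52.35 and 113.5 CPM in alpha cells, 161.8 and 580.4 CPM in delta cells, and 102.6 and 244.0 CPM in gamma cells. The centred log2 of Rgs2 was 1.94, 1.22, 1.8 and 1.31 in that order, and 0.23 (0.02 to 0.45) in macrophages, where it was not called. Rgs2 in the CCR2-DTR pair gave 0.35, 0.43, 1.13 and 0.31, so that in beta cells, for example, it was at 267.5 and 308.2 CPM.

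Snhg11, a non-coding RNA that hosts small nucleolar RNAs, was higher by 1.94 in alpha cells (30.2 and 107.6 CPM), 2.22 in delta cells (24.13 and 116.0 CPM) and 2.23 in gamma cells (15.1 and 67.99 CPM). In beta cells Snhg11 stayed below the floor, at 4.509 and 49.86 CPM. Tmem59l, a transmembrane protein gene, was called higher in the same 3 classes, at 68.4 and 159.0 CPM in alpha cells, 110.5 and 217.0 CPM in delta cells, and 45.07 and 127.7 CPM in gamma cells.

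Mt1 and Mt2 encode metallothioneins, small proteins that bind zinc and other metals; beta cells store insulin with zinc. Metallothionein genes are induced through metal response elements near their start sites. The stretches of the promoters that hold this element are shown because Mt1 differed in 5 classes. Searched were the letters TGCACNC or TGCGCNC on both strands of the 250 bases before each start in the RefSeq set for GRCm38.p6. Capitals mark the matches, and both genes lie on the plus strand, at chr8:94179056-94179082 and chr8:94172385-94172584.
Mt1: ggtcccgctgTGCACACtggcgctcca
Mt2: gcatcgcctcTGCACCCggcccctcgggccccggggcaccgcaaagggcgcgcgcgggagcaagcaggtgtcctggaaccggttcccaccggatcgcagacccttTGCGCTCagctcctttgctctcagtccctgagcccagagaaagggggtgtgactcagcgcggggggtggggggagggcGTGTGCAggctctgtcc
The Mt1 window held 1 match, 23 bases upstream of the RefSeq start, and the Mt2 window 3 matches, 223, 128 and 50 bases upstream. Bases outside the windows, also those past the RefSeq start, were not searched, so that these are not counts of all elements near the genes. At least 1 match was present in 6420 of 27025 genes (23.76%) and at least 3 in 395 (1.46%). A match describes the sequence and is not evidence of binding.

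Mt1 was at 275.2 CPM at 1 month and 572.0 CPM at 6 months in beta cells, 61.24 and 149.0 CPM in alpha cells, 66.9 and 104.9 CPM in delta cells, 118.1 and 253.5 CPM in gamma cells, and 18.88 and 59.59 CPM in endothelial cells. It was called higher in each of these, by a centred log2 of 1.0, 1.39, 0.61, 1.16 and 1.68. Mesenchymal cells gave 0.68 (-0.13 to 1.46) and macrophages went from 434.9 to 280.6 CPM (-0.51), and neither was called. Mt2 followed Mt1 in beta cells, from 43.82 to 111.6 CPM (1.29), and in gamma cells, from 25.33 to 61.15 CPM (1.33). Mt1 in the CCR2-DTR pair was above the median gene in all 7 classes, by 2.09 in beta cells and 0.84 in macrophages.

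Summed over genes, RNA of dividing cells was lower at 6 months in all 7 classes. Over 33 cell cycle genes, each needed for DNA replication or mitosis, the summed level in beta cells was 351.2 CPM at 1 month and 35.15 CPM at 6 months, 9.99-fold lower (9.282 to 10.77). It was 133.6 and 29.6 CPM in alpha cells (4.514-fold lower), 273.9 and 52.81 CPM in delta cells (5.187-fold) and 130.8 and 29.77 CPM in gamma cells (4.394-fold). In the other classes it was 255.9 and 135.9 CPM in endothelial cells (1.883-fold lower), 395.3 and 286.8 CPM in mesenchymal cells (1.378-fold, 1.077 to 1.779) and 977.7 and 357.7 CPM in macrophages (2.733-fold). A single cell held 37.47% of these UMIs at 6 months in beta cells, 62.79% in mesenchymal cells and 63.79% in macrophages. At 1 month the top cell held 35.85% in mesenchymal cells, 25.09% in macrophages, 22.81% in endothelial cells and 22.35% in gamma cells. The 6-month levels of mesenchymal cells and macrophages therefore rest largely on 1 cell each. That cell raises the 6-month level, so that it makes the fold smaller, whereas a top cell at 1 month makes it larger. Of the 33 genes, 20 were lower and 12 higher in mesenchymal cells, and 31 to 33 were lower in each of the other classes. The CCR2-DTR pair was lower in all 7 classes too, between 2.1-fold in macrophages and 20.7-fold in beta cells, but in another order of classes: mesenchymal cells gave 12.68-fold and endothelial cells 7.138-fold there, both above the 5.861-fold of alpha cells.

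**Figure D2:**
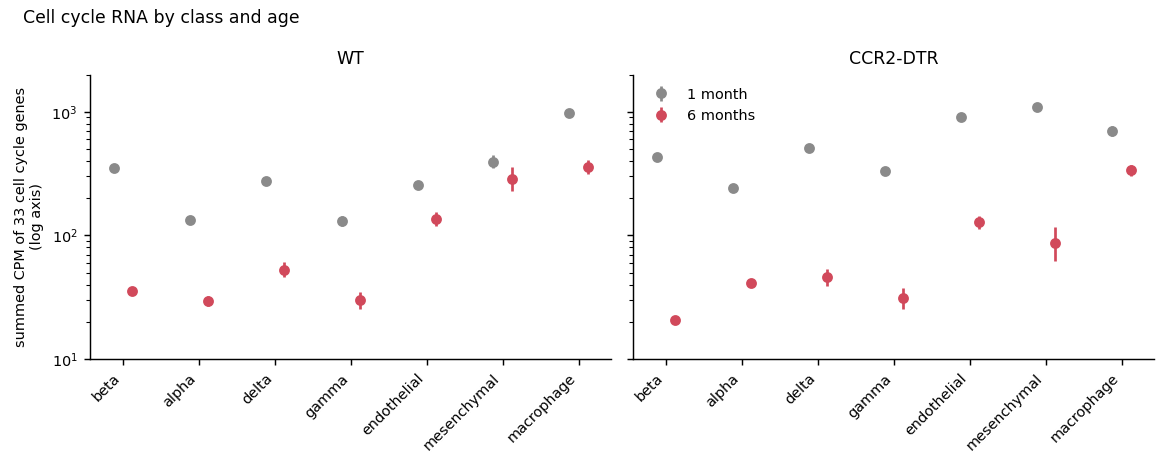
Summed level of 33 cell cycle genes in CPM (log axis) in 7 cell classes, for the WT pair on the left and the CCR2-DTR pair on the right. Grey points are 1 month and red points 6 months, with exact 95% counting intervals. The 6-month point is below the 1-month point in every class of both pairs.

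The share of dividing cells was read after thinning every cell to 2000 UMIs, counting cells with at least 3 of 38 cell cycle genes. It was 6.213% of 3670 beta cells at 1 month and 1.683% of 713 at 6 months, 5.324% and 1.793% of alpha cells, 6.729% and 1.929% of delta cells, and 3.333% and 2.691% of gamma cells. It was 19.76% and 12.11% of endothelial cells, 15.43% and 11.32% of mesenchymal cells, and 32.43% and 19.74% of macrophages. Over 10 further thinnings the share of beta cells was 6.185 to 6.485% at 1 month and 0.7013 to 1.403% at 6 months, so that the 6-month value above lies outside their range. The gamma share, at 3.077 to 4.872% and 0.0 to 3.139%, overlapped between the ages, and so did the mesenchymal share, at 12.57 to 17.71% and 5.66 to 15.09%. Cells were deeper at 6 months, and without thinning the shares of beta cells were 47.76% and 49.13%, in the opposite order. The 38 genes include Stmn1, Hmgb2, Tubb5, H2afz and Pcna, which non-dividing cells also express, so that the shares above are not of dividing cells alone. Beta cells with at least 3 of the other 33 genes were 4.169% and 0.2805%. By that count alpha cells gave 0.9567% and 0.0%, delta cells 1.495% and 0.0%, and gamma cells 0.7692% and 0.0%. Endothelial cells gave 0.9881% and 0.346%, mesenchymal cells 2.286% and 1.887%, and macrophages 8.108% and 1.316%.

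Of these broader genes, Hmgb2, which encodes a chromatin protein, was called lower in all 4 endocrine classes, from 58.87 to 14.66 CPM in beta cells (-2.06), 58.46 to 28.42 CPM in alpha cells (-0.94), 80.33 to 28.05 CPM in delta cells (-1.56) and 51.89 to 24.34 CPM in gamma cells (-1.03). It was not called in the other classes, where it gave -0.5 in endothelial cells and -0.06 in mesenchymal cells. Stmn1, a regulator of microtubules, was called lower in beta cells (84.33 to 6.082 CPM, -3.85), delta cells (105.3 to 4.801 CPM, -4.5), endothelial cells (-1.16) and macrophages (-1.68). A single beta cell held 64.57% of the Stmn1 UMIs at 6 months. Tubb5, a beta-tubulin, was called lower in beta, delta and gamma cells and macrophages, from 97.33 to 46.98 CPM in the first (-1.11).

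In beta cells 30 of 1915 genes (1.57%) were called higher at 6 months and 35 (1.83%) lower. With no centring the split was 35 higher and 25 lower. The highest ratios belonged to Cebpd, Cish and Nupr1. Cebpd, a transcription factor of inflammatory and glucocorticoid responses (chr16:15887286-15891031), was at 4.256 CPM at 1 month and 76.15 CPM at 6 months (4.11; 3.92 to 4.29). Cish (chr9:107296026-107302784) encodes a feedback inhibitor of cytokine and prolactin receptor signalling through STAT5. It was at 4.925 and 61.73 CPM (3.59). Both stayed below the floor in the CCR2-DTR pair, where Cebpd was at 14.37 and 29.22 CPM and Cish at 13 and 11.26 CPM. Nupr1 was at 9.583 and 90.57 CPM (3.19), and at 4.559 and 79.44 CPM in the CCR2-DTR pair (4.27). Nupr1 was called higher in both pairs and the other 2 genes in WT alone; the difference between the pairs was not tested.

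Klf9, Cebpd, Mt1 and Mt2, which answer to glucocorticoids, were among the higher genes. Of 14 genes in the list 5 were past the floor in beta cells. Of these 4 were called higher and none lower, and the median was 1.00. Over all beta cell genes the median is 0 by construction. Cebpd and Mt2 were below the floor level at 1 month and were counted only because they reached it at 6 months. Members below it at both ages were left out, so that the count and median lean toward higher values. Mt2 in gamma cells and Mt1 in endothelial cells, counted below, also reached that level only at 6 months. Klf9, a transcription factor of this response, was at 77.87 and 159.4 CPM (0.98), and 0.46 in the CCR2-DTR pair. In beta cells of the CCR2-DTR pair 2 of 5 were called, the metallothionein genes Mt1 and Mt2, with a median of 0.51. Over all beta cell genes of that pair 53 of 2042 were called higher and 69 lower. The same list in WT gave 3 of 5 called higher in delta cells, 2 of 5 in gamma cells and 1 of 5 in alpha cells, with none lower. Outside the endocrine cells it went both ways: 3 of 11 were called higher and 2 lower (Zbtb16 and Glul) in endothelial cells, 1 of 7 higher and 1 lower in mesenchymal cells, and 2 of 8 higher and none lower in macrophages. Txnip, which restrains glucose uptake and binds thioredoxin, was at 82.02 and 193.8 CPM in beta cells (1.19), 157.4 and 319.4 CPM in delta cells (0.98), 162.5 and 308.0 CPM in gamma cells (0.98) and 318.4 and 454.9 CPM in macrophages (0.63). It gave 0.33 in alpha cells and was not called there. Socs2, another STAT5 feedback gene, was at 40.85 and 68.2 CPM in beta cells (0.68), and Cry2, a repressor of the circadian clock, at 44.0 and 86.21 CPM (0.92). The prolactin receptor gene Prlr was at 691.8 and 939.9 CPM in beta cells (0.39), short of the 1.5-fold line.

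Several genes of protein folding in the endoplasmic reticulum (ER) were called lower in beta cells. Creld2, a chaperone of the ER, was at 120.2 CPM at 1 month and 52.3 CPM at 6 months (-1.26). Fkbp11, a prolyl isomerase, was at 144.9 and 62.93 CPM (-1.26), Sdf2l1, a partner of the chaperone BiP, at 309.1 and 163.9 CPM (-0.97), and Dnajb11, its co-chaperone, at 90.55 and 60.82 CPM (-0.63). These genes were also lower in the CCR2-DTR pair, with -1.82 for Creld2, -1.27 for Fkbp11, -1.46 for Sdf2l1 and -0.92 for Dnajb11. Of 21 genes of the unfolded protein response past the floor, 4 were called lower and none higher, with a median of -0.09. Hspa5, which encodes BiP, was not called, at 718.5 and 700.4 CPM (-0.09), nor was Xbp1, a transcription factor of this response, at 142.1 and 173.5 CPM (0.23). No gene of this list was called in alpha cells (15 genes past the floor), delta cells (21) or gamma cells (16). In mesenchymal cells 5 of 19 were called lower, Hspa5, Sdf2l1, Creld2, Manf and Xbp1, a count that ranged from 1 to 7 over the processing alternatives, and in the CCR2-DTR pair it was 1 of 19. Over all genes, 6.29% were called lower in mesenchymal cells in WT, and 244 of 3910 in the CCR2-DTR pair. Xbp1 was called higher in endothelial cells (1 of 17), and Xbp1 and Hyou1 in macrophages (2 of 19). Over all genes, 3.53% and 7.54% were called higher in these classes, so that such few calls give the list no direction there.

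Another 4 genes whose products act at the ER are given as single genes; they were chosen after their values were seen, because they were called lower, and no list of such genes was counted. Ssr2 and Ssr4 encode subunits of the translocon-associated complex, Spcs1 a subunit of the signal peptidase and Ppib an ER prolyl isomerase. Ssr2 was at 221.8 and 142.2 CPM (-0.70), Ssr4 at 669.0 and 456.1 CPM (-0.61), Spcs1 at 318.9 and 210.8 CPM (-0.65) and Ppib at 172.5 and 110.8 CPM (-0.69). All lay just past the 1.5-fold line.

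The unfolded protein response acts in part through the ER stress element, CCAAT and CCACG with any 9 bases between, found on either strand in the 250-base window of 35 of 27025 genes (0.1295%). Creld2 and Hspa5 both hold it and are shown because 1 of them was called lower and the other was not. The stretches are chr15:88819500-88819558 and chr2:34772005-34772063 on GRCm38.p6, plus strand, and capitals mark the match, which is on the opposite strand in Creld2.
Creld2: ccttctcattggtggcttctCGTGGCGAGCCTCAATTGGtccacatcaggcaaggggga
Hspa5: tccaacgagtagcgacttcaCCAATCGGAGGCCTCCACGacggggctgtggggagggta
The match starts 126 bases upstream in Creld2 and 65 bases upstream in Hspa5. The letters were not found in the windows of Sdf2l1, Fkbp11, Dnajb11, Ssr4, Spcs1 and Ppib.

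Of 21 genes of beta cell maturity past the floor none was called, and their median was -0.08. Mafa, a transcription factor of mature beta cells, was at 269.5 and 366.0 CPM (0.39), the maturity marker Ucn3 at 280.6 and 237.5 CPM (-0.30), the glucose transporter Slc2a2 at 452.8 and 443.8 CPM (-0.08) and Nkx6-1 at 305.2 and 339.0 CPM (0.10). Ins1, Ins2 and Iapp gave -0.13, -0.12 and -0.08; Ins1 and Ins2 also chose the cells. Of 20 genes of the secretory granule 1 was called lower, Ptprn, which encodes a granule membrane protein, at 167.1 and 115.5 CPM (-0.59). All 45 genes of oxidative phosphorylation past the floor lay below the median gene in beta cells, with a median of -0.24, but only 1 was called. Delta cells were close to this, with a median of -0.19 and 44 of 46 genes below the median gene, whereas alpha cells gave a median of 0.04. The shift was not seen in beta cells of the CCR2-DTR pair, where the median was 0.14 and 29 of 46 genes lay above the median gene.

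Other genes called lower in beta cells were Dapl1, Nnat and Pak3. Dapl1 went from 96.91 to 19.92 CPM (-2.34). Nnat, an imprinted gene of a small membrane protein that aids insulin processing, went from 95.28 to 27.83 CPM (-1.83). Pak3, a kinase downstream of small GTPases on the X chromosome (chrX:143518591-143797796), went from 119.0 to 47.99 CPM (-1.36; -1.46 to -1.27). Pak3 was the only gene that met the rule for a single class in beta cells: called at 2-fold or more there and within 0.32 of the median gene on the log2 scale in every other class where it passed the floor, at least 3 of them. It was at 259.3 and 219.9 CPM in alpha cells (-0.13), 244.6 and 247.4 CPM in delta cells (-0.03) and 157.1 and 131.4 CPM in gamma cells (-0.2). The CCR2-DTR pair gave -1.28 in beta cells and -0.01, 0.09 and 0.23 in the others, and Pak3 met the same rule there.

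In alpha cells 24 of 2447 genes (0.981%) were called higher and 22 (0.899%) lower, and with no centring 20 and 41. Immediate early genes, which are transcribed within minutes of a stimulus, accounted for 10 of these 22. Of 12 past the floor 10 were called lower and none higher, with a median of -0.84, and the summed level of the list was 4516 and 2524 CPM at 1 and 6 months. Fos was at 772.9 and 421.3 CPM (-0.77), Egr1 at 557.4 and 239.5 CPM (-1.11), Ier2 at 107.4 and 33.08 CPM (-1.6), Junb at 190.8 and 105.8 CPM (-0.75) and Dusp1 at 112.8 and 48.81 CPM (-1.1). The sum was 4083 and 4227 CPM in the CCR2-DTR pair, and there Fos gave 0.25, Egr1 -0.25, Ier2 -0.12, Junb 0.55 and Dusp1 0.13. The list was thus lower at 6 months in WT alpha cells and nearly level in the CCR2-DTR pair; that difference between the pairs was not tested.

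The same list in the other WT classes gave 5 of 11 called lower in delta cells (median -0.49), 6 of 13 in gamma cells (-0.41), 3 of 13 in mesenchymal cells (-0.43), 3 of 15 in macrophages (0.01) and none of 6 in beta cells (-0.15). In endothelial cells 1 of 17 was called higher and none lower (0.30). Egr1 was called lower in 5 classes, and in delta cells was at 546.2 and 304.2 CPM (-0.89). Ier2 was called lower in 5 as well, by -1.08 in delta cells and -0.88 in gamma cells. For Egr1 the CCR2-DTR pair gave values between -0.25 and 1.06 over the classes.

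Among the hormone and carrier genes of alpha cells, Ttr, which encodes transthyretin, was at 21120 and 30020 CPM (0.61). Pyy, chosen after its values were seen, was at 9744 and 17920 CPM (0.98) and gave 0.96 in the CCR2-DTR pair. Gcg, which chose the cells, was at 264300 and 298300 CPM (0.28). Upk3a, a uroplakin gene, was at 16.85 and 52.3 CPM (1.74). Of 11 alpha cell identity genes past the floor 1 was called higher and 2 lower, with a median of -0.26. Slc38a5, an amino acid transporter tied to alpha cell proliferation, was at 108.9 and 58.2 CPM (-0.80). Olfm1, a secreted glycoprotein gene, was at 93.75 and 38.31 CPM (-1.19). Slc38a5 gave -0.78 and Olfm1 -0.97 in the CCR2-DTR pair. No gene met the rule for a single class in alpha cells or in gamma cells, a count limited by the spread of values in mesenchymal cells and macrophages.

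In delta cells 85 of 3283 genes (2.59%) were called higher and 52 (1.58%) lower. Ache, which encodes acetylcholinesterase, was at 14.53 and 80.6 CPM (2.43; 2.01 to 2.88), and gave 2.6 in the CCR2-DTR pair. Gadd45b, a stress-response gene, was at 34.82 and 116.2 CPM (1.7). Wls, the carrier that brings Wnt proteins to the cell surface (chr3:159839672-159938664), was at 27.42 and 92.23 CPM (1.71; 1.39 to 2.04) and was the only gene that met the single-class rule in delta cells. Wls was at 131.7 and 145.0 CPM in beta cells (0.08), 64.4 and 68.09 CPM in alpha cells (0.18), and 95.98 and 107.4 CPM in gamma cells (0.22). The CCR2-DTR pair gave 1.2 for Wls in delta cells and 0.43 in alpha cells.

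Among the lower genes of delta cells, Ptn, which encodes the growth factor pleiotrophin, was at 110.8 and 39.92 CPM (-1.51), Gap43, a protein of growing axons, at 228.7 and 117.0 CPM (-1.01), and Mest, an imprinted gene, at 83.62 and 43.46 CPM (-0.99). Nnat was at 207.6 and 127.6 CPM (-0.74). The CCR2-DTR pair gave -1.65 for Ptn, -0.68 for Gap43, -1.07 for Mest and -1.08 for Nnat, each in the same direction. Of 8 delta cell identity genes none was called (median -0.29), and Hhex, the delta lineage factor, was at 271.4 and 221.3 CPM (-0.34). The delta barcodes also carried gamma markers, at 68810 and 55110 CPM summed at 1 and 6 months.

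In gamma cells 28 of 2266 genes (1.24%) were called higher and 24 (1.06%) lower, and with no centring 24 and 35. Spp1, which encodes the secreted protein osteopontin, was at 89.64 and 236.0 CPM (1.46) and gave 1.38 in the CCR2-DTR pair. In alpha cells Spp1 was at 28.77 and 76.61 CPM (1.52), but 0.26 in the CCR2-DTR pair. Of 13 heat shock genes 3 were called higher, with a median of 0.15: Hspb1 at 63.33 and 145.4 CPM (1.26), Hspa1b at 73.57 and 130.6 CPM (0.89) and Hspa1a at 192.2 and 299.1 CPM (0.70). Chga, a granule protein gene, was at 3283 and 5249 CPM (0.74). On the lower side, Igfbp7, a secreted binding protein, was at 285.5 and 121.9 CPM (-1.17), and Smarca1, a chromatin remodeller, at 284.5 and 176.0 CPM (-0.63). The CCR2-DTR pair gave -1.47 for Igfbp7 and -0.74 for Smarca1.

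**Figure D3:**
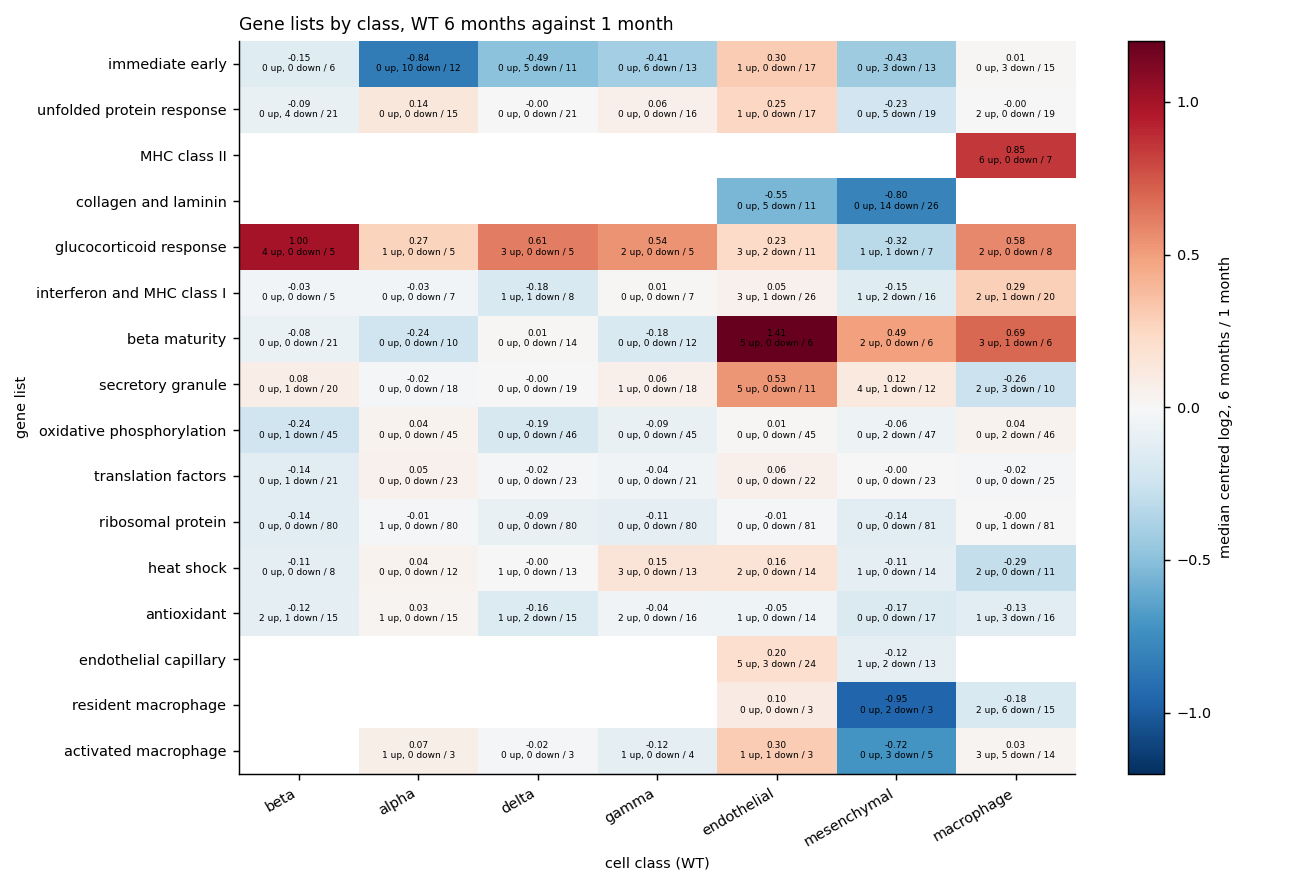
Median centred log2 ratio (colour, 6 months to 1 month) of 16 gene lists in the 7 WT classes, with the number of genes called higher (up), lower (down) and past the floor in each cell; white means fewer than 3 genes past the floor. The darkest blue cell for alpha is the immediate early list (-0.84, 10 of 12 called lower), and MHC class II is red in macrophages (0.85).

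Endothelial cells had 137 of 3886 genes (3.53%) called higher and 124 (3.19%) lower. Igfbp5, which binds insulin-like growth factors, was at 35.99 and 361.7 CPM (3.35; 3.02 to 3.7). Bmp6, a growth factor that endothelial cells secrete, was at 8.779 and 70.57 CPM (3.03), Alpl, an alkaline phosphatase, at 16.24 and 83.12 CPM (2.38), Mal at 15.8 and 81.55 CPM (2.39) and Sost, a secreted Wnt inhibitor, at 10.97 and 58.55 CPM (2.44). All 5 were also above the median gene in the CCR2-DTR pair, with 4.19 for Igfbp5, 2.15 for Bmp6, 2.86 for Alpl, 1.44 for Mal and 2.08 for Sost. Esm1, a marker of islet and tip endothelium, was at 2095 and 4540 CPM (1.14), and Angpt2, a factor that loosens vessels, at 40.82 and 91.48 CPM (1.19). Apln, the ligand apelin, was at 19.31 and 62.73 CPM (1.72) but gave -0.06 in the CCR2-DTR pair. General endothelial genes were not called: Plvap gave -0.15, Kdr 0.26, Pecam1 -0.08 and Cdh5 -0.22.

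Of 24 genes of islet and capillary endothelium past the floor, 5 were called higher (Esm1, Apln, Igfbp5, Angpt2 and Ehd3) and 3 lower (Aplnr, Sox17 and Sox18), with a median of 0.20. Aplnr, the apelin receptor gene, was at 127.7 and 27.18 CPM (-2.21), and at -2.33 in the CCR2-DTR pair. The transcription factor genes Sox11 (57.5 and 9.409 CPM, -2.59) and Tcf15 (60.58 and 9.932 CPM, -2.58) and the microfibril gene Mfap2 (125.5 and 20.39 CPM, -2.6) were lower in both pairs. Of 11 collagen and laminin genes 5 were called lower and none higher, with a median of -0.55 and a summed level of 14750 and 8236 CPM. Col4a1 and Col4a2, which form the type IV collagen of basement membranes, were at 3419 and 1986 CPM (-0.76) and at 2643 and 1327 CPM (-0.97). Sparc, a matrix protein gene, was at 5999 and 2725 CPM (-1.11). Col4a1 gave -1.14, Col4a2 -1.07 and Sparc -1.39 in the CCR2-DTR pair, and the collagen list summed to 16380 and 7736 CPM.

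Zbtb16, a transcription factor gene that responds to glucocorticoids, was at 201.0 and 18.82 CPM (-3.39), but -0.49 in the CCR2-DTR pair. Cyp26b1, which breaks down retinoic acid (chr6:84571414-84593908), was at 225.6 and 7.841 CPM (-4.82) and went the other way in the CCR2-DTR pair, at 45.53 and 212.6 CPM (2.21). Of 26 genes of the interferon response and MHC class I past the floor in endothelial cells, 3 were called higher (B2m, H2-Q4 and H2-Q7) and 1 lower (Irf9), with a median of 0.05. B2m, the light chain of MHC class I, was at 998.6 and 1612 CPM (0.72), and H2-Q7 at 14.49 and 53.84 CPM (1.92). In the CCR2-DTR pair 7 of 26 were called higher and none lower, where 216 of all 3880 endothelial genes were called higher and 165 lower. Fam174b, a membrane protein gene, was the only one that met the single-class rule in endothelial cells, at 56.19 and 131.2 CPM (95% interval of the centred log2 0.94 to 1.57), and it gave 1.65 in the CCR2-DTR pair. In the 4 endocrine classes Fam174b was between 0.06 and 0.28.

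Among the genes called higher in endothelial, mesenchymal and macrophage cells were several of beta cells. Of 2037 genes past the floor in all 3 classes 10 (0.491%) were called higher in each and 2 (0.0982%) lower. The higher ones included Lars2, Gm42418, Gm47283, Rsrp1 and the endocrine genes Scg2, G6pc2, Chga, Prlr and Glp1r; the lower ones were Igfbp4 and Sst. Prlr was at 31.17 and 117.6 CPM in endothelial cells (1.94), 47.74 and 153.4 CPM in mesenchymal cells (1.64) and 52.19 and 90.98 CPM in macrophages (0.92). Ins2 in endothelial cells was at 18760 and 28510 CPM (0.63), and the beta maturity list gave 5 of 6 called higher there (median 1.41), where 3.53% of all genes were. That count ranged from 0 to 13 over the processing alternatives. List members below 50 CPM at 1 month were counted only where they reached it at 6 months, so that the count and median lean toward higher values. Of the 10 beta markers, 3 reached 50 CPM in endothelial cells at 1 month and 7 at 6 months. In the CCR2-DTR pair Prlr gave -0.24, -0.77 and -0.79 and endothelial Ins2 -0.50. These genes moved with the summed level of the 10 beta markers in the same classes, given above. Ins2 and G6pc2 are among those markers, so that they are part of the sum. The part of RNA from beta cells in the difference of these genes was not tested. Sst went from 662.8 to 226.4 CPM in endothelial cells (-1.52) and from 1698 to 185.0 CPM in macrophages (-3.08), while the ratio of the share of delta cells was 1.398 (1.213 to 1.61). The summed beta markers also moved against the share of their cells: they were higher at 6 months in these classes, and the beta share ratio was 0.5625 (0.5219 to 0.6059). The part of carried RNA in these values was not tested.

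**Figure D4:**
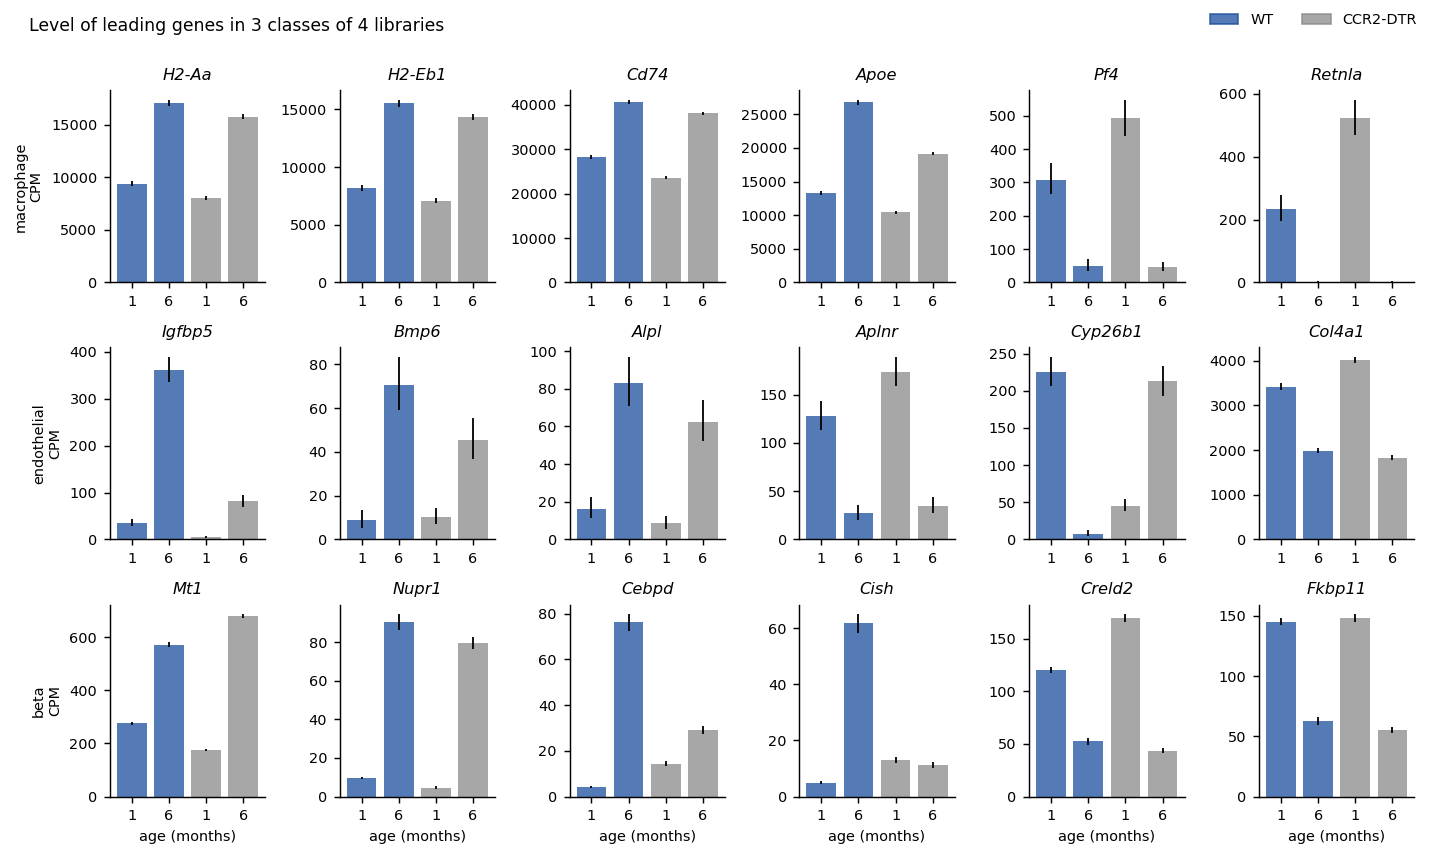
Level in CPM (bars from 0, with exact 95% counting intervals) of 6 genes each in macrophages, endothelial cells and beta cells, at 1 and 6 months in WT (blue) and CCR2-DTR (grey) libraries. H2-Aa and Apoe are higher at 6 months in both pairs, Pf4 and Aplnr lower in both, and Cyp26b1 is at 225.6 and 7.841 CPM in WT but at 45.53 and 212.6 CPM in the CCR2-DTR pair.

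In mesenchymal cells 233 of 4168 genes (5.59%) were called higher and 262 (6.29%) lower. With UMIs outside hormone and mitochondrial genes as the total the split was 311 and 231. Only 53 cells at 6 months stand behind these values. Of 26 collagen and laminin genes 14 were called lower and none higher, with a median of -0.80. Col1a1 and Col3a1, the fibrillar collagens, were at 1553 and 687.0 CPM (-1.22) and at 4074 and 1321 CPM (-1.67), and the list summed to 23560 and 11490 CPM. A single cell held 45.02% of these UMIs at 6 months; with each cell given equal weight 18 genes of the list were called lower. The CCR2-DTR pair gave 0.46 for Col1a1 and 0.06 for Col3a1, and its sum was 26840 and 26240 CPM.

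The makeup of the class moved with the collagens. After thinning, 46 of 175 mesenchymal cells at 1 month (26.29%, 19.93 to 33.46) had more fibroblast than mural markers, against 4 of 53 at 6 months (7.547%, 2.095 to 18.21). In the CCR2-DTR pair the shares were 30.12% and 35.44%. The part of this makeup in the collagen difference was not tested, and fewer fibroblasts and less collagen RNA per cell cannot be told apart in the summed counts. These mural genes were not called: Rgs5, the leading pericyte gene, was at 7805 and 8203 CPM (0.03), Notch3 gave 0.06 and Acta2, smooth muscle actin, was at 1845 and 2748 CPM (0.53).

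Other mesenchymal genes with low values at 6 months were Fn1, fibronectin (258.1 and 20.01 CPM, -3.73), Ccl19, a chemokine that draws lymphocytes (274.5 and 40.02 CPM, -2.82), and Colec11, a secreted lectin (102.9 and 10.0 CPM, -3.4). Fn1 gave -0.22, Ccl19 -1.21 and Colec11 -1.69 in the CCR2-DTR pair. Ogn was down to 1 UMI, from 66. Elastin, Eln, went from 669.8 to 143.4 CPM (-2.27), and 74.42% of what remained came from 1 cell. Higher were Ednrb, an endothelin receptor (198.4 and 586.9 CPM, 1.52), Sncg, gamma-synuclein (77.57 and 276.8 CPM, 1.79), and Cd36, a fatty acid transporter (19.39 and 106.7 CPM, 2.42). Ednrb gave 1.09, Sncg 2.44 and Cd36 1.81 in the CCR2-DTR pair.

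In macrophages 227 of 3009 genes (7.54%) were called higher and 195 (6.48%) lower, and with no centring 139 and 283. With UMIs outside hormone and mitochondrial genes as the total they were 148 and 299. Of 7 genes of MHC class II presentation, which shows peptides to helper T cells, 6 were called higher and none lower, with a median of 0.85. H2-Aa was at 9401 CPM at 1 month and 17070 CPM at 6 months (0.98), H2-Ab1 at 6974 and 14810 CPM (1.2), H2-Eb1 at 8180 and 15550 CPM (1.05), and Cd74, the invariant chain, at 28260 and 40700 CPM (0.64). Ciita, the master regulator of these genes, was at 118.3 and 185.0 CPM (0.76). The list summed to 54190 and 90040 CPM, a ratio of 1.662 (1.639 to 1.685), and to 46130 and 82180 CPM in the CCR2-DTR pair, a ratio of 1.781 (1.758 to 1.805). After thinning, 101 of 111 macrophages at 1 month and 76 of 76 at 6 months had an H2-Aa UMI (113 of 123 and 85 of 85 without thinning). Among endothelial cells thinned alike they were 2 of 506 and 3 of 289. In endothelial cells, which should hold little of it, the MHC class II sum was 5.706 and 15.68 CPM.

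General macrophage genes gave 0.27 for C1qa, which encodes a complement subunit, 0.31 for C1qb, -0.11 for Csf1r and 0.24 for Adgre1, none of them called. Summed markers of dendritic cells and granulocytes in the class were at 245.3 and 237.5 CPM. Apoe was at 13260 and 26790 CPM (1.13). Ccr2, the chemokine receptor of monocytes, was at 140.9 and 232.8 CPM (0.84), and after thinning 11.71% (6.386 to 19.19) and 27.63% (17.99 to 39.09) of the cells had a UMI of it, intervals that overlap. Without thinning these shares were 15.45% and 42.35%, and no endothelial cell had a Ccr2 UMI, 0 of 599 and 0 of 301. The CCR2-DTR pair, in which cells with Ccr2 were the target of the toxin, gave 0.97 for Apoe and 0.08 for Ccr2. Cxcr4, another chemokine receptor, was at 22.62 and 154.2 CPM (2.89), and H2-M2, a class Ib gene, at 6.959 and 84.81 CPM (3.73). Both were higher in the CCR2-DTR pair as well, by 1.81 and 3.91. Cd209a and Mgl2, lectins of monocyte-derived cells, were at 12.18 and 155.7 CPM (3.8) and at 74.81 and 194.3 CPM (1.5); 48.51% of the Cd209a UMIs at 6 months lay in 1 cell, and the CCR2-DTR pair gave 0.22 and -0.81.

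Resident tissue macrophages, which often lie along vessels, were followed by a list of their genes. Of 15 genes of resident macrophages 6 were called lower and 2 higher, with a median of -0.18. Lyve1 was at 114.8 and 12.34 CPM (-3.1), Folr2 at 73.07 and 9.252 CPM (-2.86), Cbr2 at 81.77 and 9.252 CPM (-3.03) and Pf4 at 307.9 and 49.34 CPM (-2.52). All the 6-month UMIs of Lyve1, Folr2 and Cbr2 came from 1 cell, and 84.38% of those of Pf4. Mrc1, the mannose receptor of such cells, was at 134.0 and 97.15 CPM (-0.35) and was not called. Retnla, a product of alternatively activated macrophages, gave 135 UMIs at 1 month, 54.81% of them in 1 cell, and 0 at 6 months. Its level was at least 46.76-fold lower, taking 3 UMIs as the limit that 0 allows, and the CCR2-DTR pair also had 0 at 6 months. Lyve1, Folr2, Cbr2 and Pf4 gave -5.52, -4.11, -3.78 and -3.3 in that pair. After thinning, 8.108% of 111 cells at 1 month and 1.316% of 76 at 6 months had a Lyve1 UMI, intervals of 3.775 to 14.83% and 0.03331 to 7.114% that overlap; for Pf4 they were 18.92% (12.11 to 27.45) and 1.316% (0.03331 to 7.114). Without thinning, 10 of 123 and 1 of 85 macrophages had a Lyve1 UMI and 29 of 123 and 6 of 85 a Pf4 UMI. As a background, 0 of 599 endothelial cells at 1 month and 2 of 301 at 6 months had a Lyve1 UMI, and Pf4 gave the same numbers.

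Inflammatory genes of macrophages were found on both sides. Cxcl2, a chemokine for neutrophils, was at 269.7 and 43.18 CPM (-2.52), Ccl3 at 341.0 and 97.15 CPM (-1.69) and Ccl4 at 688.9 and 277.6 CPM (-1.19), whereas Il1b, interleukin 1 beta, was at 154.8 and 296.1 CPM (1.05). In the CCR2-DTR pair Ccl3 gave -0.26 and Ccl4 0.54. Lpl, lipoprotein lipase, was at 243.6 and 70.93 CPM (-1.66) and gave -1.67 in the CCR2-DTR pair. Fabp5, a fatty acid carrier, was at 179.2 and 4.626 CPM (-5.16), the latter from 3 UMIs, but went from 115.1 to 229.8 CPM in the CCR2-DTR pair (1.09).

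Genes that met the single-class rule were few: 23 of 14818 genes examined, summed over the classes (0.155%). Mesenchymal cells had 10 of them and macrophages 10. Of the former, Ndn and Rian are imprinted and were lower, Ndn at 146.2 and 46.69 CPM (-1.69) against 0.06 in alpha cells, -0.15 in delta cells and 0.1 in gamma cells, and Rian at 144.7 and 60.03 CPM (-1.31). In the imprinted list 4 of 9 genes were called lower in mesenchymal cells, Meg3, Rian, Ndn and Cdkn1c, and none higher, where 6.29% of all genes of the class were called lower. In the CCR2-DTR pair 2 of 10 were called lower, Ndn and Cdkn1c, and 2 higher, H19 and Impact. Over all mesenchymal genes of that pair 244 of 3910 were called lower and 366 higher. The share of cells with more fibroblast than mural markers, 26.29% at 1 month and 7.547% at 6 months, moved with these genes in WT, and its part in them was not tested. Aig1 and Rab3a were higher, at 62.66 and 150.1 CPM (1.22) and at 56.69 and 136.7 CPM (1.23). In macrophages, Ctsd, the lysosomal protease cathepsin D, was at 1284 and 532.0 CPM (-1.15), with 41.87% of the 1-month UMIs in 1 cell, and gave 0.2 in the CCR2-DTR pair. Cxxc5, a zinc finger protein gene, was at 83.51 and 32.38 CPM (-1.25) and gave -1.44 there. Grk3, a kinase of G protein-coupled receptors, was at 53.93 and 115.6 CPM (1.22) and gave 1.07. Pak3 and Cxxc5 met the rule in both pairs.

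The CCR2-DTR pair shares no library with the WT pair, and the genes called in WT were looked up in it. Of the beta cell genes called in WT, 23 of 30 higher and 35 of 35 lower ones passed the floor in the CCR2-DTR pair, and all of these lay on the same side of the median gene. In alpha cells this held for 21 of 21 higher and 16 of 21 lower genes, in delta cells for 64 of 68 and 44 of 50, and in gamma cells for 24 of 25 and 20 of 23. Endothelial cells gave 97 of 112 and 102 of 111, macrophages 156 of 198 and 121 of 164, and mesenchymal cells 95 of 153 and 140 of 237. Over all genes of a class past the floor, between 47.77% and 52.23% lay on the given side in the CCR2-DTR pair. Calls in opposite directions in the 2 pairs numbered 62, of which 34 were in mesenchymal cells, 22 in macrophages, 5 in endothelial cells, 1 in gamma cells and 0 in beta, alpha and delta cells. The mesenchymal class, with the fewest cells, had the lowest shares on the same side.

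**Figure D5:**
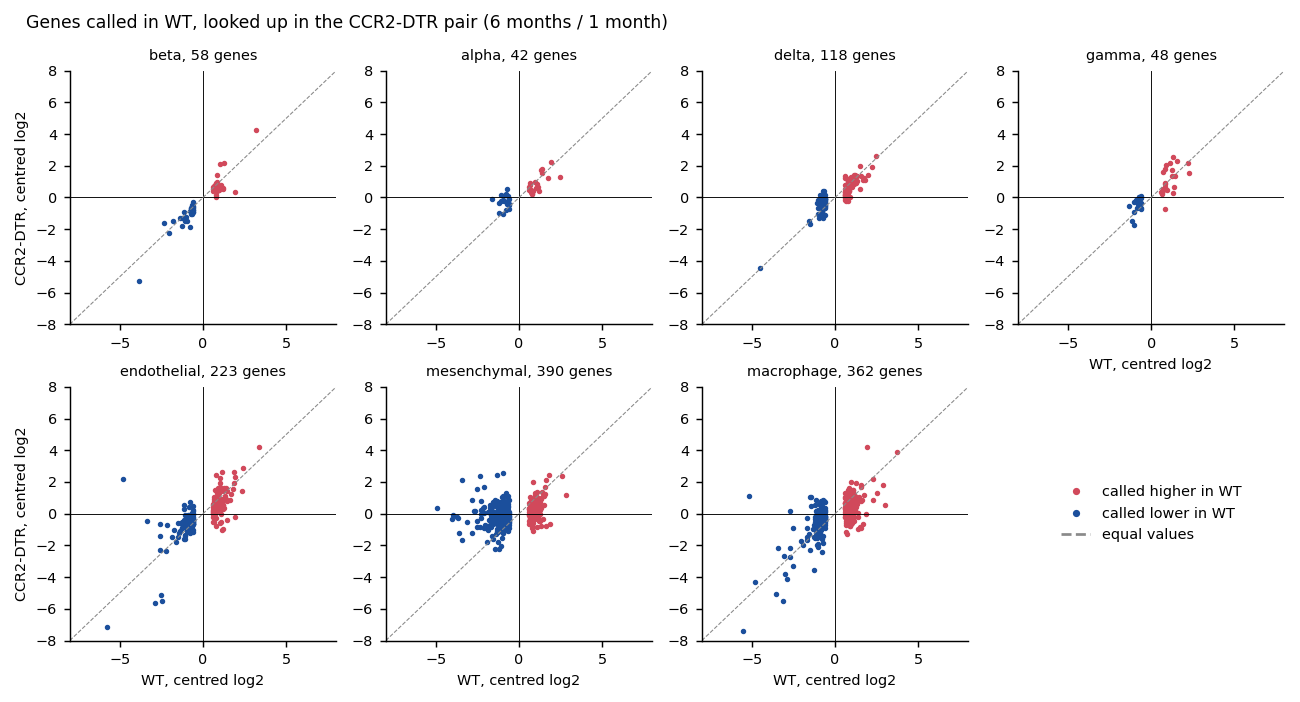
Centred log2 ratio of 6 months to 1 month in WT (horizontal axis) and in the CCR2-DTR pair (vertical axis) for genes called in WT and past the floor in both pairs, 1 panel per class. Red points were called higher in WT and blue points lower; the dashed line marks equal values. All 58 beta cell genes shown, of 65 called in WT, lie in the quadrants of equal sign, and mesenchymal genes lie in all 4.

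The genes shared by the classes differed between the pairs. In the CCR2-DTR pair 13 genes were called higher and 1 lower in all 7 classes. The higher ones were Mt1, Dpm3, Gm10076 and 10 ribosomal protein genes, and the lower one was Stmn1. None of the WT set of 3 was among them. In WT, no more than 1 of the 80 or 81 ribosomal protein genes past the floor was called in any class.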

How the data were processed

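The libraries were made on the 10x Genomics Chromium platform. The authors deposited, per the submitters' processing notes, UMI count matrices made with Cell Ranger 5.0.1 on mm10. The annotation release and the treatment of intron reads were not given in the sources used here. Deposited lists of genes and barcodes (32285 genes) hold names, not measurements (unit other). Barcodes with at least 1000 UMIs, 500 genes, at most 15% mitochondrial UMIs and a Scrublet doublet score of at most 0.25 were kept. Barcodes with at least 2% digestive enzyme UMIs or with markers of a second class were left out of the classes, a rule set after the data were seen. Counts were summed per class and library in Python 3.11.15 with numpy 2.4.6 and scipy 1.17.1, and doublets were scored with scanpy 1.11.5. Ratios have exact conditional Poisson intervals and shares exact Clopper-Pearson intervals (95%). The sums were tested on simulated data. Of 672 entries in 34 gene lists 669 were found. The members and lists were chosen with earlier results of these data known. Genes were named by rule: those shared by all, endocrine or other classes (up to 15), the 6 highest and 6 lowest ratios per class, up to 4 single-class genes, the extremes of each list, and genes called in at least 4 classes. Any other gene named, such as further list members, known markers and genes with opposite directions, was chosen after its values were seen. The per-class ranking left out hormone, digestive, haemoglobin, mitochondrial, ribosomal and predicted genes, markers of other classes and genes more than 5-fold below another class. Positions come from GENCODE vM21 on GRCm38 and sequences from RefSeq for GRCm38.p6. Alternatives changed the total, centring, floor, fold, filters, thresholds, thinning and weight of cells. Some genes that entered the fits and counts are not reported here.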

Additional observations from a re-analysis of the deposited data

Results flagged for a closer look

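Several genes took opposite directions from 1 to 6 months in the WT and CCR2-DTR pairs and passed the 1.5-fold line in both; the values are centred log2 ratios, and with 1 library for each age and genotype none of these differences was tested. Endothelial Cyp26b1 had 2.21 in the CCR2-DTR pair against -4.82 in WT. Macrophage Fabp5 had 1.09 against -5.16, the WT value at 6 months resting on 3 UMIs. Macrophage Emb, a single-class gene in WT, had -0.97 against 1.38, at 128.7 and 61.61 CPM in the CCR2-DTR pair and 46.97 and 112.6 CPM in WT. Macrophage Mgl2 had -0.81 against 1.5. Among the immediate early genes, Egr1 had 1.06 against -1.48 in macrophages and Ier2 had 0.84 against -1.42 in mesenchymal cells. Nupr1 had 0.76 against -0.82 in mesenchymal cells. Of the genes of endocrine cells, Scg2 had -0.97 against 1.22 in endothelial cells, -1.1 against 0.86 in mesenchymal cells and -1.31 against 0.72 in macrophages. G6pc2 had -0.86 against 1.07 in mesenchymal cells and -0.91 against 1.53 in macrophages. Chga had -1.16 against 0.65 in macrophages. Prlr had -0.73 against 0.84 in gamma cells, -0.77 against 1.64 in mesenchymal cells and -0.79 against 0.92 in macrophages.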

How the results depend on the processing

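No paired analysis was possible because the labels give no replicate numbers and each group is 1 library. Of 112 values of named genes none reversed and 51 moved by less than their interval under every alternative; of 45 list counts 14 stayed within 1.5 times. Gm42418 was called higher in all 7 classes under every alternative, whereas Lars2 was lost on thinning and with a floor of 100 CPM. With UMIs outside hormone and mitochondrial genes as the total, calls numbered 167 in beta, 94 in alpha and 125 in gamma cells, against 65, 46 and 52. A minimum of 3000 UMIs changed the share ratios to 0.9456 in alpha, 1.857 in delta, 1.767 in gamma, 2.758 in endothelial and 2.244 in macrophage cells, and reversed that of mesenchymal cells to 1.98. Equal weight of cells gave 388 beta calls and 5 shared higher genes. Thinning gave 122 calls in beta, 85 in alpha, 343 in delta, 205 in gamma, 414 in endothelial and 278 in macrophage cells. A floor of 100 CPM left 30, 25, 55, 27, 139, 285 and 206 calls in beta, alpha, delta, gamma, endothelial, mesenchymal and macrophage cells and 6 single-class genes. No CPM floor gave 1652, 1385, 1189, 915, 1066, 751 and 739 calls, 62 single-class genes and 2 genes lower in all 7 classes, Cenpf and Top2a. Hormone thresholds times 1.5 gave a beta share ratio of 0.4481. A lower fold for calls, or calls in at least 6 of 7 classes, gave 5 shared higher genes. The ratio of dividing shares was 0.2709 in beta, 0.3368 in alpha, 0.2867 in delta, 0.8072 in gamma, 0.6128 in endothelial, 0.7338 in mesenchymal and 0.6086 in macrophage cells. Counting cells with at least 2 genes made it 0.5973 in beta, 0.6689 in alpha and 0.7998 in delta cells and 1.016 in mesenchymal cells, which reversed. Without thinning it reversed in every class, to 1.029, 1.436, 1.583, 1.292, 1.327, 1.675 and 1.146 in the order above. With doublets kept it was 0.08645 in beta and 0.0 in gamma cells. Alternatives chosen after seeing the data were thresholds times 0.75 (beta share ratio 0.8202), barcodes of mixed markers kept, and the cell cycle list without its 5 broad genes, which gave ratios of 0.06728 in beta, 0.3502 in endothelial and 0.1623 in macrophage cells. The cause of these shifts was not tested. Depth limits the mesenchymal and macrophage values most, since 53 and 85 cells stand behind them at 6 months.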
